A study of Homo sapiens with 8 samples.

Results

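The genes EGR1, EGR2, JUN, IER2 and ATF3, which growth factors and stress induce early, were followed in MDA-MB-231, a human cell line of triple-negative breast cancer. They were chosen by gene symbol, with earlier results of these data known. All 5 were found among the 2998 genes that the 3 deposited tables of the study list. RNA sequencing had been done on 8 samples in 4 groups of 2, all from this cell line and all harvested after 48 h. The groups were cells with no treatment and cells given unmodified brazilin, methylated brazilin or acetylated brazilin at 20 µM, added at seeding and renewed every day. Brazilin is the phenolic precursor of the red dye of sappanwood and brazilwood. The time between the last renewal and harvest, and whether untreated cells received solvent or fresh medium, are not given in the sources used here.

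Each table compares 1 compound with the untreated cells and lists genes called significant by the authors, with the mean FPKM of both groups (fragments per kilobase of transcript, scaled to the mapped fragments of the library). Beside these stand a q-value and a log2 fold change. No listed q-value reaches 0.05 and no listed change is smaller than 0.5 on the log2 scale. Single samples and read totals have no column, so the spread within a group of 2 cannot be shown and the depth is unknown. The labels do not say whether the 2 samples of a group are separate cultures, so the q-values may measure technical spread alone. All values of single genes given here, whether FPKM, fold change or q-value, come from the authors' deposited tables, each for its own compound. The 95% intervals rest on a standard error derived from the q-value. If the authors used an unshrunken Wald test, the true error is no larger than this. A gene that is absent from a table has no value here, and its absence does not show that it was unchanged. In these bulk samples fewer cells with a transcript and less transcript per cell cannot be told apart.

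Immediate early genes are transcribed within minutes of a stimulus, without new protein synthesis, by factors that are already in the cell. Kinases of the MAPK cascades activate serum response factor with its ETS partners, CREB and ATF proteins and JUN itself on their promoters, and the transcripts are usually short-lived. EGR1 and EGR2 encode zinc finger factors that bind GC-rich sites, JUN encodes a core subunit of the dimeric factor AP-1, ATF3 encodes a leucine zipper factor induced by many stresses, and IER2 encodes a nuclear protein of the immediate early response. IER2 is less clearly a DNA-binding factor than the other 4.

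All 5 genes were higher with unmodified brazilin, at least 2-fold each, by log2 fold changes of 1.34 to 4.65. Of the 2885 genes in the brazilin table, 47.6% were higher, 52.4% were lower and 18.5% were at least 2-fold higher. The median log2 fold change of the 5 genes was 2.01, against -0.51 for all listed genes and 0.83 for the 1374 listed genes that were higher. None of the 5 was listed with acetylated or methylated brazilin.

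EGR1, the early growth response factor, went from 13.0 FPKM without treatment to 125 FPKM with brazilin by the authors' deposited table. The log2 fold change was 3.18 (interval 3.01 to 3.35), a 9.07-fold rise, with a q-value listed at 0. This was rank 23 of the log2 fold changes of 2496 listed genes that reach 1 FPKM in either group. Of the 164 listed genes with at least 100 FPKM under brazilin, 17 rose at least 2-fold. EGR1 was among the 4 with the largest rises, after HMOX1 and the histone genes H2AC18 and H1-2, named after their values were seen. EGR1 passes that cut only through its level with brazilin, so its place there is a description and no support for its rise.

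EGR2, its relative known for its part in hindbrain and Schwann cell development, rose from 0.08 to 2.10 FPKM by the authors' deposited table (log2 fold change 4.65, 95% interval 3.77 to 5.52, q = 1.91e-25). It had the lowest level of the 5 and the largest deposited fold change, but that order turns with 1 FPKM added to both means, where the log2 ratio was 1.52 for EGR2, 3.18 for EGR1 and 2.06 for ATF3. FPKM means move in steps of 0.005, so the untreated value lies close to the lowest values in the table. EGR1 stood 162-fold above EGR2 in untreated cells and 59.7-fold above it with brazilin on the FPKM scale. The intervals of the log2 fold changes of EGR1 and EGR2 did not overlap.

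ATF3 rose from 29.8 to 128 FPKM by the authors' deposited table (log2 fold change 2.01, 95% interval 1.88 to 2.14, q = 1.18e-195), a 4.04-fold rise. JUN, the AP-1 subunit, rose from 47.0 to 128 FPKM (log2 fold change 1.35, 95% interval 1.25 to 1.45, q = 7.08e-156). IER2 rose from 46.9 to 127 FPKM (log2 fold change 1.34, 95% interval 1.23 to 1.46, q = 7.77e-123). JUN and IER2 thus had nearly equal levels in each group, and their fold changes lie well within each other's intervals. ATF3 changed more than either, with an interval that does not meet theirs. An antisense gene, AC011446.2, overlaps IER2 over 1123 bases in GENCODE release 29. The sources used here do not give whether the libraries kept strand, so reads of the pair cannot be told apart, and IER2 is uncertain for that reason.

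**Figure D1:**
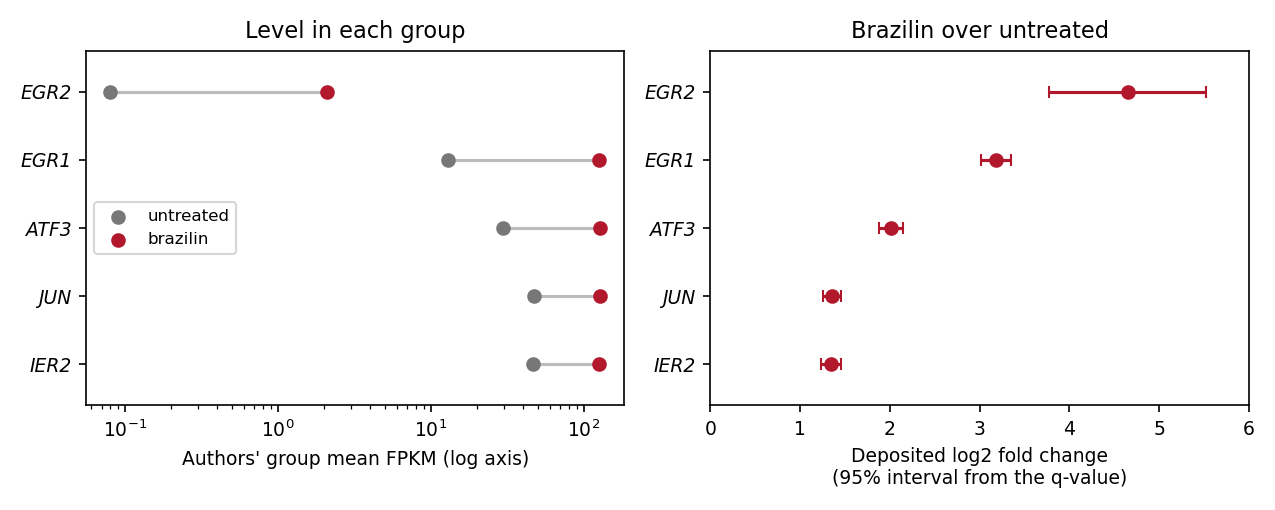
Left, the authors' mean FPKM of EGR2, EGR1, ATF3, JUN and IER2 in untreated (grey) and brazilin-treated (red) cells, on a log axis. Right, the deposited log2 fold change (points) with 95% intervals derived from the q-value (bars). EGR1, ATF3, JUN and IER2 start between 13.0 and 47.0 FPKM and end between 125 and 128 FPKM, while EGR2 ends at 2.10 FPKM.

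The levels of EGR1, ATF3, JUN and IER2 were closer to each other with brazilin than without it. In untreated cells these 4 genes ranged from 12.965 to 47.005 FPKM, a ratio of 3.63 between the highest and the lowest. With brazilin they ranged from 125.32 to 127.72 FPKM, a ratio of 1.02. The gene with the lowest untreated level, EGR1, had the largest fold change of the 4, ATF3 came next in both respects, and JUN and IER2, with the highest untreated levels, changed least. This order follows from the near-equal levels with brazilin and is no separate result. EGR2, at 2.10 FPKM with brazilin, lies far from the 4 and was left out after its value was seen. Among all listed genes 6 fall in that FPKM range under brazilin, including these 4, the other 2 being FKBP2 and TCEAL9, which were both lower with brazilin and are named after their values were seen. Without values per sample, no error can be put on the closeness of the means, and the order of the 4 levels under brazilin cannot be resolved.

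**Figure D2:**
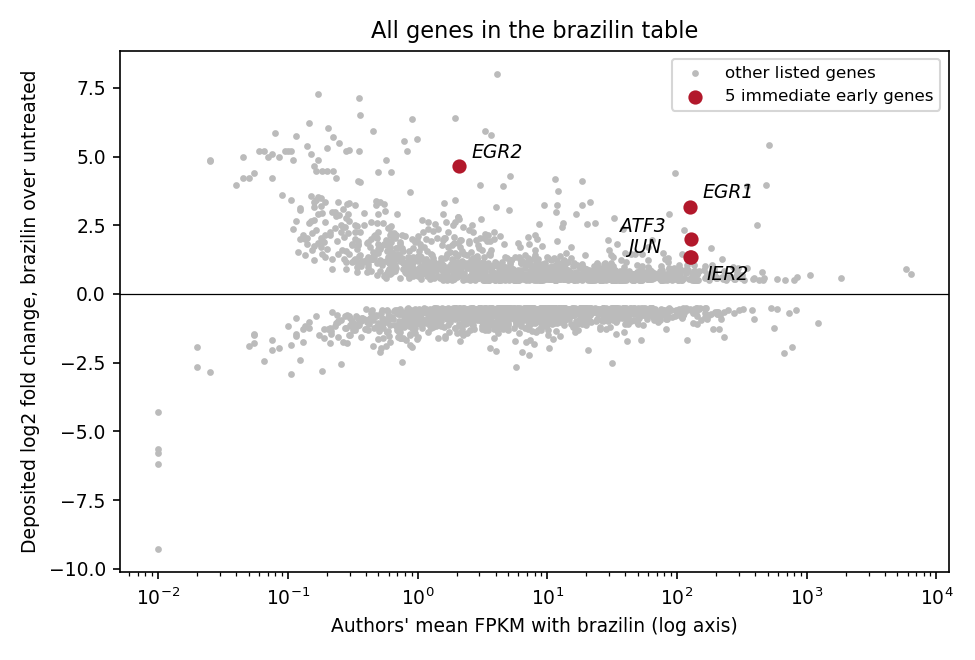
Deposited log2 fold change (vertical axis) against the authors' mean FPKM with brazilin (horizontal, log axis) for the 2885 listed genes in grey and the 5 immediate early genes in red. The empty band around 0 is the minimum of 0.5 in the authors' table. EGR1, ATF3, JUN and IER2 lie in the upper part of the plot at 125 to 128 FPKM, and EGR2 lies in the low-abundance part of the plot.

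The EGR family gave 4 listed genes of 6 with its NAB corepressors, all 4 higher with brazilin (median log2 2.32, against -0.51 for all listed genes). EGR1 and EGR2 are among these 4 and were chosen with earlier results known, so the count and the median in part restate that choice. Over all genes, 14.3% of those coding for protein in RefSeq were in the brazilin table, and 47.6% of listed genes were higher. EGR3, the third family member, was at 0.16 and 0.46 FPKM (log2 fold change 1.46, 95% interval 0.57 to 2.34) by the authors' deposited table. NAB2, a corepressor that binds EGR factors and limits their activity, rose from 13.3 to 20.5 FPKM (log2 fold change 0.51, 95% interval 0.34 to 0.69). The order of fold changes was EGR2, EGR1, EGR3 and NAB2. The intervals of EGR3 and NAB2 overlap, and the difference between that pair was not tested. EGR4 and NAB1 were not listed.

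AP-1 is a dimer of a JUN protein with a FOS protein, another JUN protein or an ATF protein. Of the 7 genes of the JUN and FOS families, 5 (71.4%) were listed with brazilin, against 14.3% of all protein-coding genes. All 5 were higher (median log2 1.35), while 47.6% of all listed genes were higher. JUN, chosen with earlier results known, is among them, so the count in part restates that choice. FOS rose from 7.04 to 29.4 FPKM (log2 fold change 1.97, 95% interval 1.79 to 2.16) and FOSB from 2.91 to 11.8 FPKM (log2 fold change 1.92, 95% interval 1.72 to 2.13). JUNB rose from 32.5 to 84.7 FPKM (log2 fold change 1.29, 95% interval 1.16 to 1.43). These values place FOS and FOSB above JUN and JUNB in fold change, with no overlap of intervals between the pairs. FOSL1, a FOS-related gene, was the most abundant of the 5 in both groups and changed least, from 179 to 287 FPKM (log2 fold change 0.60, 95% interval 0.49 to 0.71). JUND and FOSL2 were not listed.

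Among 28 further leucine zipper genes, ATF3 included, 10 (35.7%) were listed with brazilin, against 14.3% of all protein-coding genes. Of these 10, 7 were higher and 3 lower, while 47.6% of all listed genes were higher. By the ratio of FPKM means with a minimum of 0.5 on the log2 scale, 7 were higher and 0 lower. At q under 0.001, 3 were higher and 3 lower. ATF3 had the largest change of the 10. BATF3 and BATF2, partners of JUN proteins in immune cells, were at 5.42 and 11.4 FPKM (log2 fold change 1.01, 95% interval 0.56 to 1.47) and at 0.505 and 1.23 FPKM (log2 fold change 1.17, 95% interval 0.36 to 1.98) by the authors' deposited table. ATF7, a relative of ATF2, has a log2 fold change of -0.68 (interval -0.83 to -0.53), but its FPKM means are 22.5 and 21.0, a log2 ratio of only -0.10, so the size of its fall is uncertain. The other 2 lower genes were CREB3L2 and CEBPG, at -0.60 and -0.55 on the log2 scale, named after their values were seen. The IER family gave 2 listed genes of 4 (50%), IER2 and IER5, both higher, beside the same shares of 14.3% and 47.6%. ATF3 and IER2 were chosen with earlier results known, so the counts of their lists in part restate that choice. IER5, which heat shock and radiation are known to induce, rose from 21.8 to 39.4 FPKM (log2 fold change 0.76, 95% interval 0.64 to 0.89), less than IER2.

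**Figure D3:**
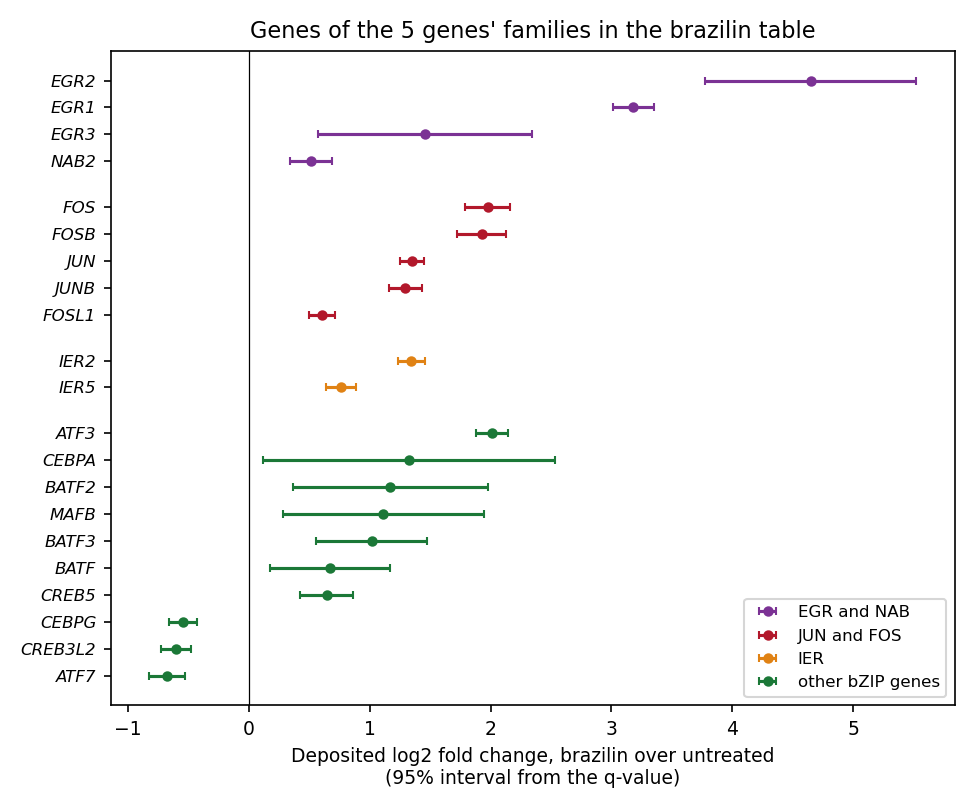
Deposited log2 fold change with 95% intervals derived from the q-value for the listed genes of the EGR and NAB genes (purple), the JUN and FOS families (red), the IER family (orange) and other leucine zipper genes (green). All 11 genes of the first 3 groups lie above 0, and in the fourth group CEBPG, CREB3L2 and ATF7 lie below it.

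A wider set of immediate early genes was read beside the 5. Of 76 others, 39 (51.3%) were in the brazilin table, 38 of them higher, with a median log2 fold change of 0.93, while 14.3% of all RefSeq protein-coding genes were in that table. The number of genes that the authors tested is not known, and the lists were chosen with earlier results of these data known. The 2 shares and the common direction are therefore a description and no independent support. The 1 gene that was lower was KLF9, a factor known as a glucocorticoid target, at 5.70 and 4.22 FPKM (log2 -0.53), named after its value was seen. Among 25 other transcription factor genes 13 were listed and 12 were higher (median log2 0.65), while 47.6% of all listed genes were higher. ID2, an inhibitor of basic helix-loop-helix factors, rose from 1.20 to 11.8 FPKM (log2 fold change 3.22, 95% interval 2.78 to 3.67), and its interval holds the value of EGR1. SNAI1, a repressor of E-cadherin, rose from 1.37 to 8.60 FPKM (log2 fold change 2.56, 95% interval 2.17 to 2.95), and the nuclear receptor gene NR4A3 was at 0.485 and 1.71 FPKM (log2 fold change 1.72, 95% interval 1.31 to 2.13). CSRNP1, a nuclear protein gene, rose from 13.6 to 29.2 FPKM (log2 1.02).

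Immediate early genes that do not encode transcription factors were higher in 19 of 19 listed cases, out of 38 in the list (median log2 0.96). By comparison, 47.6% of all listed genes were higher, and 14.3% of all protein-coding genes were listed. ARC, a cytoskeletal gene best known from neurons, where its transcript marks recent activity, rose from 0.245 to 5.15 FPKM (log2 fold change 4.29, 95% interval 3.79 to 4.80). GADD45G, a growth arrest gene, was at 0.455 and 2.63 FPKM (log2 fold change 2.50, 95% interval 1.53 to 3.46). BTG2, an antiproliferative gene, was at 0.26 and 1.44 FPKM (log2 fold change 2.36, 95% interval 1.66 to 3.06). TNFAIP3, a feedback inhibitor of NF-kB, rose from 4.42 to 15.3 FPKM (log2 fold change 1.70, 95% interval 1.53 to 1.86). Of these 4 genes, ARC was closest to EGR2 in fold change, and the intervals of the pair overlap.

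**Figure D4:**
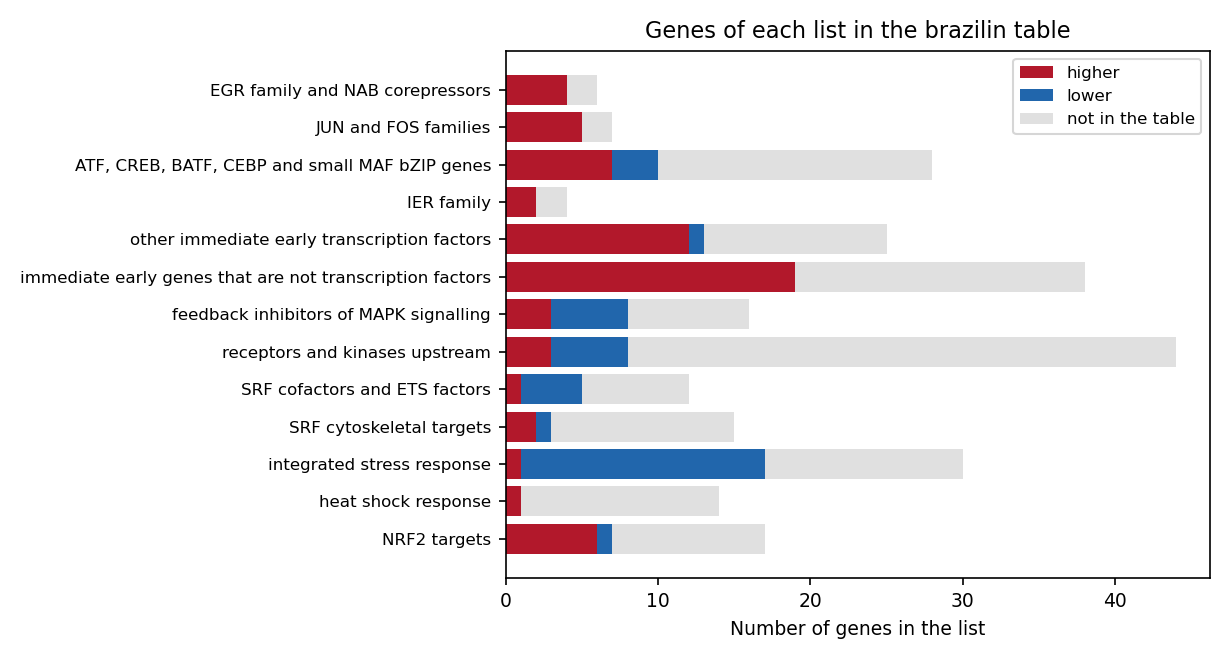
Number of genes of each list that were higher (red) or lower (blue) in the authors' brazilin table or not in it (grey). In the immediate early lists, which hold 80 genes, 42 are red, 1 is blue and the other 37 are grey, while 16 of 17 listed genes of the integrated stress response are blue.

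Of 44 genes of receptors and kinases upstream of the 5, 8 (18.2%) were listed with brazilin, near the 14.3% of all protein-coding genes. Of these 8, 3 were higher and 5 lower (median log2 -0.52), near the division of all listed genes into 47.6% and 52.4%. When the ratio of FPKM means had to reach 0.5 on the log2 scale, 3 higher and 1 lower were left, but no gene changed direction. By the authors' deposited table MAP2K3, a kinase that activates p38, rose from 45.7 to 90.5 FPKM (log2 fold change 0.90, 95% interval 0.78 to 1.02). HRAS rose from 52.7 to 82.9 FPKM (log2 0.59). The other higher gene, RPS6KA4, named after its value was seen, rose from 18.4 to 28.2 FPKM (log2 0.53). RPS6KA2, a kinase of the RSK family downstream of ERK, fell from 7.59 to 3.30 FPKM (log2 fold change -1.29, 95% interval -1.49 to -1.10), and MAPK13, a p38 kinase gene, from 14.9 to 10.6 FPKM (log2 -0.58). The other 3 lower genes, named after their values were seen, were MAP3K5, MAP3K1 and IGF1R, at -0.57 to -0.50 on the log2 scale, and IGF1R has nearly equal FPKM means of 5.29 and 5.25. No ERK or JNK gene was listed.

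The feedback inhibitors of MAPK signalling divided by gene. Of 16 genes 8 (50%) were listed, against 14.3% of all protein-coding genes. Of these 8, 3 were higher and 5 lower (median log2 -0.52), beside 47.6% and 52.4% of all listed genes. When the FPKM ratio had to reach 0.5 on the log2 scale, 3 were higher and 3 lower, and no gene changed direction. DUSP1, a nuclear phosphatase that is itself an immediate early gene, rose from 42.5 to 86.8 FPKM (log2 fold change 0.94, 95% interval 0.82 to 1.06) by the authors' deposited table. DUSP10, a phosphatase of JNK and p38, rose from 14.1 to 25.1 FPKM (log2 fold change 0.80, 95% interval 0.64 to 0.95), and DUSP2 was at 0.37 and 1.18 FPKM (log2 fold change 1.57, 95% interval 0.57 to 2.58). DUSP4, a nuclear phosphatase induced by ERK signalling, fell from 149 to 83.7 FPKM (log2 fold change -0.92, 95% interval -1.01 to -0.84). The other 4 lower genes, named after their values were seen, were DUSP16, SPRY1, SPRED3 and DUSP6, at -0.79 to -0.52 on the log2 scale.

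Of 12 serum response factor cofactors and ETS factors 5 (41.7%) were listed, against 14.3% of all protein-coding genes. Of these 5, 4 were lower, while 52.4% of all listed genes were lower (median log2 -0.60, against -0.51 for all listed genes). ETV1 fell from 33.5 to 15.8 FPKM (log2 fold change -1.20, 95% interval -1.32 to -1.08), MRTFB from 4.23 to 2.96 FPKM (log2 -0.65) and ETV5 from 31.8 to 22.3 FPKM (log2 -0.60), while ETS2 rose from 15.3 to 26.5 FPKM (log2 fold change 0.70, 95% interval 0.57 to 0.84). ETV1 and ETV5 are ETS factors of the PEA3 group. ELK4, a direct partner of serum response factor named after its value was seen, was at 8.69 and 7.12 FPKM (log2 -0.53). Of 15 cytoskeletal targets of serum response factor 3 (20%) were listed, near that 14.3%. MYL9 and TAGLN, smooth muscle contractile genes, were higher, by 0.68 and 0.88 on the log2 scale, and CALD1 fell from 43.0 to 32.0 FPKM (log2 -0.51).

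ATF3 was higher with brazilin while most listed genes of the integrated stress response were lower. In this response, translational control through eIF2 raises ATF4, which induces ATF3 and amino acid genes. Of 30 genes taken for it and for endoplasmic reticulum stress, ATF3 left out, 17 (56.7%) were in the brazilin table, against 14.3% of all protein-coding genes. Of these 17, 16 were lower, while 52.4% of all listed genes were lower (median log2 -0.58, against -0.51 for all listed genes). NUPR1, a stress-induced chromatin protein gene, fell from 5.03 to 2.22 FPKM (log2 fold change -1.27, 95% interval -1.53 to -1.02) by the authors' deposited table. WARS1, the tryptophan tRNA synthetase gene, fell from 285 to 144 FPKM (log2 fold change -1.08, 95% interval -1.18 to -0.99). DNAJB9 and HSPA5, endoplasmic reticulum chaperone genes, fell by 1.07 and 1.04 on the log2 scale. These chaperone genes and sensor kinase genes such as EIF2AK3 and ERN1 make the list wider than the targets of ATF4. Its count is therefore no measure of ATF4 activity, which was not tested. SLC7A11, in the same list and named after its value was seen, is listed at -0.54 on the log2 scale although its FPKM means are 49.1 and 51.8, so its direction is uncertain. The 1 higher gene, named after its value was seen, was STC2, at 0.59 and 1.19 FPKM. ATF4 and DDIT3 themselves were not listed. By the ratio of FPKM means with a minimum of 0.5 on the log2 scale, 10 genes of this list were lower and 1 was higher. SLC7A11 was the only gene of the list to change direction by that ratio.

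Of 14 heat shock genes 1 (7.14%) was listed with brazilin, the mitochondrial chaperonin gene HSPE1 (from 309.8 to 459.6 FPKM, log2 0.51). Of all protein-coding genes 14.3% were listed. Of 17 NRF2 targets, antioxidant and iron genes, 7 (41.2%) were listed. Of these 7, 6 were higher, also by the ratio of FPKM means, while 47.6% of all listed genes were higher. HMOX1, the inducible heme oxygenase, had a log2 fold change of 5.41 (interval 5.12 to 5.70). This was larger than that of any of the 5 immediate early genes, although its interval meets that of EGR2. GCLM, FTH1 and FTL rose by 1.14, 0.91 and 0.72 on the log2 scale. The 1 gene with a negative deposited change was SLC7A11, whose direction is uncertain, as above.

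Group levels most like those of the 5 genes were searched over the whole brazilin table, by Euclidean distance in log2 FPKM over the 2 group means. JUN and IER2 were each other's nearest gene among all 2885, at a distance of 0.013. The next for both was G0S2, an inhibitor of fat breakdown, at 55.4 and 121 FPKM (distance 0.25). Nearest to ATF3 were GADD45A, a stress-induced growth arrest gene, at 37.6 and 110 FPKM (distance 0.40), and JUNB (distance 0.60). Nearest to EGR1 were the histone genes H2AC6, at 11.1 and 87.0 FPKM, and H2BC5, at 19.1 and 113 FPKM, with distances of 0.57 and 0.58. Nearest to EGR2 were ARL14, a small GTPase gene, at 0.075 and 2.02 FPKM (distance 0.11), and the histone gene H2BC6, at 0.065 and 3.66 FPKM (distance 0.85). With 2 group means, this likeness covers level and change together and no more.

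The 3 compounds were used at the same dose and for the same time, but no pair of compounds could be compared for any of the 5 genes, since each gene has a value for brazilin alone. The acetylated brazilin table lists 193 genes and holds 0.933% of RefSeq protein-coding genes, with 62.2% of those listed higher and 37.8% lower, and the methylated table lists 11 and holds 0.0549%, with 27.3% higher and 72.7% lower. Neither lists a gene of the EGR, JUN, FOS or IER families or of the leucine zipper list. The difference between unmodified brazilin and its derivatives for EGR1, EGR2, JUN, IER2 and ATF3 was therefore not tested. Of the 80 genes in the immediate early lists, 1 was listed with either derivative. This was GEM, a small GTPase gene, which fell from 58.0 to 39.8 FPKM with acetylated brazilin (log2 fold change -0.55, 95% interval -0.69 to -0.41) and to 34.7 FPKM with methylated brazilin (log2 fold change -0.75, 95% interval -1.22 to -0.28) by the authors' deposited tables. These 2 intervals overlap, both comparisons use the same untreated samples, and GEM was not listed with brazilin. HMOX1 was listed with brazilin and with acetylated brazilin, where it rose from 11.4 to 424 FPKM (log2 fold change 5.21, 95% interval 4.93 to 5.48), and that interval overlaps the one with brazilin. With acetylated brazilin 9 of 17 NRF2 targets were listed, 8 of them higher, with FTH1, GCLM and PIR at 1.58, 1.48 and 0.75 on the log2 scale and AKR1C1, named after its value was seen, lower. With methylated brazilin NQO1 was higher (log2 0.63) and HSPA1A, a heat shock gene with a near-identical neighbour and so uncertain, was lower (log2 -0.59).

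Sequences upstream of the 5 genes were read from RefSeq (GRCh38.p14), as 250 bases before each start, since the known inputs to such genes act close to their starts. Each of the 5 means was higher with brazilin, but whether the genes share a regulator was not tested. The sequence table used has 1 start for EGR1, JUN and IER2, 3 for EGR2 and 2 for ATF3. The windows of EGR1 and EGR2 with a CArG box are shown whole, and those of JUN and ATF3 as the 30 bases around a JUN-type element, a choice made after the matches were seen. Matches on either strand are in capitals, all other bases in lower case. EGR1 on chromosome 5, plus strand, chr5:138465229-138465478, carries CArG boxes, the core of serum response elements:
EGR1: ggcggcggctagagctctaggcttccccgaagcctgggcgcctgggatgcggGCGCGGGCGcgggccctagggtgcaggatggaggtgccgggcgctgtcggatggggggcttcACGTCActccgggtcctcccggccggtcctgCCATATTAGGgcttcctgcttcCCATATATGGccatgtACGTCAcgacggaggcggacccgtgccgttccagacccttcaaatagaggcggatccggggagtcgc
The window of EGR2 on chromosome 10, minus strand, chr10:62816367-62816616, also has one:
EGR2: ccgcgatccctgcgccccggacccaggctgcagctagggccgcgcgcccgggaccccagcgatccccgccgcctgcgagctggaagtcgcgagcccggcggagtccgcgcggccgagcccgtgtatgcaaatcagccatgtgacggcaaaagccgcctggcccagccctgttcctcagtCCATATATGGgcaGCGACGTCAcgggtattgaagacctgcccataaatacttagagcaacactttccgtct
JUN and ATF3 share a JUN-type element, the variant AP-1 site that JUN and ATF proteins bind in the JUN promoter. The JUN site lies on chromosome 1, minus strand, chr1:58784096-58784125:
JUN: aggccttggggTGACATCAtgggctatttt
The ATF3 site lies on chromosome 1, plus strand, chr1:212565273-212565302:
ATF3: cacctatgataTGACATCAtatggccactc

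The CArG box, the site of serum response factor, was found at -105 to -96 and at -83 to -74 before the EGR1 start and at -71 to -62 before this EGR2 start. It is present in 1.16% of all 35116 RefSeq windows of this length. The hexamer TGACGT, part of the cAMP response element that CREB and ATF proteins bind, was found at -136 to -131 and -67 to -62 in EGR1 and at -55 to -50 in EGR2, and is present in 7.10% of windows. The EGR2 copy overlaps a match to TGACNNNGC, the core of the antioxidant response element, which 10.9% of windows hold. The JUN-type element TGACATCA was found at -67 to -60 in JUN and at -123 to -116 in ATF3, and in 2.37% of all windows. EGR1 has a match to GCGNGGGCG, the site of EGR factors, at -198 to -190, present in 8.41% of windows. IER2 has CGGAAG, an ETS hexamer, at -70 to -65 and -27 to -22, present in 16.5% of windows. The second ATF3 start has TATAAA at -230 to -225, present in 10.7% of windows. No match to TGACGTCA, the full cAMP response element, or to TGANTCA, the AP-1 site, lies in the 8 windows, and these occur in 1.65% and 6.57% of all windows.

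In the brazilin table as a whole, the CArG box was found before 1.85% of the 1084 higher genes with a window and 2.17% of the 1199 lower genes. The JUN-type element was in 2.12% and 2.34%. These shares count a gene if any of its windows has a match, unlike the shares of windows above. Counted in that way over all 27305 genes, the CArG box was in 1.44% and the JUN-type element in 2.91%. GENCODE release 29 starts the principal transcripts of EGR1 and EGR2 within 11 bases of the RefSeq starts used, that of JUN 280 bases further upstream, so that the JUN element lies inside that transcript, and that of IER2 1564 bases downstream. For ATF3 it lies 43263 bases downstream of the first RefSeq start, the one with the JUN-type element, and 6348 bases upstream of the second. Which start the cells used cannot be seen in values per gene. A match is a description of the letters and not evidence of binding.

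**Figure D5:**
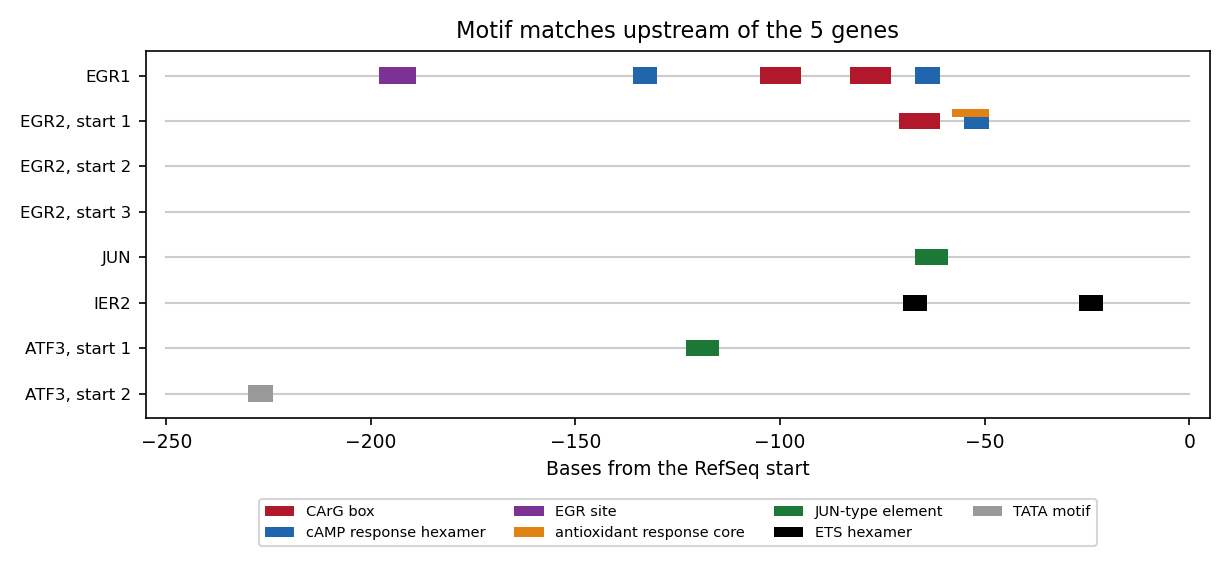
Motif matches (coloured bars) in the 250 bases before each RefSeq start of the 5 genes, with the distance from the start in bases on the horizontal axis. EGR1 and 1 EGR2 start have CArG boxes (red), JUN and 1 ATF3 start have the JUN-type element (green), and 2 of 3 EGR2 starts have no match.

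Of the markers of the cell line's mesenchymal-like state, CD44 and CAV1 were listed, at 132 and 180 FPKM in untreated cells, and both were higher with brazilin (log2 0.55 and 0.53). No luminal, leukocyte or fibroblast marker of 15 was listed, and of 3 endothelial markers PECAM1 was listed, at 1.35 and 0.905 FPKM (log2 -0.62). Tables restricted to changed genes cannot show the level of any other marker, so the identity of the cells was not tested further.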

How the data were processed

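Per the labels' protocols, total RNA was extracted with Trizol, and BGI Americas made the libraries, sequenced them and analysed the data. Per the submitters' processing notes, HISAT, StringTie, Bowtie, RSEM and DESeq2 were used, with the builds GRCh38, hg38 and mm10 and no version, role or order. Per the file headers, the deposited values are group mean FPKM, a q-value (the authors' adjusted p-value) and a log2 fold change. FPKM values are whole multiples of 0.005 and none is under 0.01. The deposited fold changes are treated over untreated, by their sign against the FPKM means. They lie a median of 0.09 below the log2 ratio of the FPKM means in the brazilin table. All 84 genes that the brazilin and acetylated brazilin tables share have equal untreated FPKM.

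No test was fitted here, since no column holds values per sample. The standard error was the absolute log2 fold change over the normal quantile of the q-value read as a two-sided p-value. A q-value of 0 was taken as 1e-300. The formula was also run on data simulated with the same normal test. That run checks the arithmetic and says nothing of the authors' test or of groups of 2. Genes were matched to RefSeq (GRCh38.p14) by symbol or synonym and gene ID, for 283 of 283 entries in 19 lists. The 5 genes and the lists were chosen with earlier results of these data known, and the motifs with the sequences in view. Named are the 5 genes, every listed gene of the EGR, JUN, FOS and IER lists, the 4 largest changes per other list among genes reaching 1 FPKM in either group, and the 2 genes nearest to each of the 5, with exceptions marked. Transcript features came from GENCODE release 29, with 1 principal transcript per gene. Alternatives were other q-value, fold change and FPKM thresholds, the ratio of FPKM means, and matching on symbols alone. Software was Python 3.11.15, pandas 2.3.3, NumPy 2.4.6, SciPy 1.17.1 and Matplotlib 3.10.9.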

Additional observations from a re-analysis of the deposited data

How the results depend on the processing

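No paired analysis was possible because the tables carry no values per sample, and for the same reason no replicate could be left out. None of the 5 genes changed direction under any alternative tried. By the ratio of FPKM means the log2 changes were 3.27 for EGR1, 1.44 for JUN, 1.43 for IER2 and 2.10 for ATF3, and less the table median of that ratio 3.60, 1.77, 1.76 and 2.43. With 1 FPKM added to both means they were 1.52 for EGR2, 1.42 for JUN and 1.41 for IER2, against 3.18 for EGR1 and 2.06 for ATF3. At an absolute log2 fold change of at least 2, 3 of the 5 genes were left. At one of at least 1, the higher genes left were 1 of the IER family, 4 of the other immediate early factors, 9 of the immediate early genes that are not factors, 2 of the NRF2 targets, and 0 of the serum response factor cytoskeletal, heat shock and mesenchymal lists. The lower genes left were 0 of the MAPK feedback inhibitors, 1 of the receptors and kinases, 1 of the cofactors and ETS factors, 4 of the integrated stress response and 0 of the endothelial markers, which also gave 0 at q under 0.01 and under 0.001. Of the leucine zipper genes, 5 higher and 0 lower ones reached a change of 1. At q under 0.001, 3 leucine zipper genes were higher and 3 lower. Where the ratio of FPKM means had to reach 0.5 on the log2 scale, 3 feedback inhibitors were lower and 3 higher, 0 leucine zipper genes were lower and 7 higher, 1 gene of the receptors and kinases was lower and 3 higher, and 10 of the integrated stress response were lower. In these lists the lost genes fell short of that minimum, and SLC7A11 alone changed direction. The other 80 values stayed within their error or within 1.5 times of the count. Depth is unknown, and EGR2, EGR3, ARC, BTG2, GADD45G, NR4A3, BATF2, DUSP2, STC2, ARL14 and H2BC6 were under 1 FPKM in untreated cells.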

Other observations

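JUN, IER2, EGR1 and EGR2 have few exons and short spans. In GENCODE release 29 the principal transcripts of JUN and IER2 have 1 exon, those of EGR1 and EGR2 have 2 and that of ATF3 has 4, against a median of 9 over the 2865 listed brazilin genes with a transcript. The genomic spans of IER2, JUN, EGR1 and EGR2 were 2934, 3540, 3826 and 4360 bases, against a median of 28525, and that of ATF3 was 12108 bases. RefSeq gives longer gene spans of 4501 bases for IER2, 7172 bases for EGR2 and 55371 bases for ATF3, the last above that median. Genes with 1 or 2 exons were higher in 77.3% of 277 cases in the brazilin table, and genes with 3 or more in 44.4% of 2588. The part of this relation in the rise of the 5 genes was not tested.

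The 3' untranslated regions of the 5 transcripts are close to each other in length, at 1050 to 1287 bases, against a median of 1084 for the listed genes. The pentamer ATTTA, the core of AU-rich elements that shorten transcript life, occurs 3 times in those of JUN and ATF3, 2 times in EGR2, 1 time in EGR1 and 0 times in IER2, against a median of 2 over the listed genes. The longer motif TTATTTATT is in none of the 5 and in 8.52% of the listed genes. The deposited tables hold no measure of transcript stability.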
